A study of Homo sapiens with 10 samples.

Results

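The genes that encode the respiratory chain and ATP synthase were followed in HCT116 cells, a human colorectal cancer line, by mRNA sequencing. Members were chosen by symbol alone: genes whose names begin with MT-ND, MT-CO, MT-CY, MT-ATP, NDUFA, NDUFB, NDUFC, NDUFS, NDUFV, UQCR, COX4 to COX8 or ATP5, together with SDHA, SDHB, SDHC, SDHD and CYC1. In the table of the ZMAT3 experiment this rule found 107 of 13029 genes, of which 13 are encoded in mitochondrial DNA, 81 are nuclear genes of subunits, 8 are complex I assembly factors (NDUFAF genes), and 5 are other entries such as pseudogenes and readthrough transcripts. In the table of the siRNA experiment it found 115 of 17642 genes, and the 109 with a mean of at least 0.5 FPKM comprised the same 13 mitochondrial genes, 78 nuclear subunit genes, 7 assembly factors and 11 other entries. COX4I2, COX6A2, COX7A1, COX7B2 and COX8C, restricted isoforms of complex IV subunits, were not analysed here, and COX6B2 had values in the siRNA table only.

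The study asked which RNAs depend on the RNA-binding protein ZMAT3 and on a transcriptional activator of its gene. Untreated ZMAT3-WT cells (3 libraries, wild-type clone) were set against ZMAT3-KO cells (3 libraries, 1 knockout clone), in which a pair of guide RNAs and Cas9 had removed a short stretch in an intron of ZMAT3, an edit that lowers the transcript and leaves the rest of the locus in place. Separately, HCT116 cells transfected for 72 h with a pool of 4 siRNAs against that activator (sip53, 2 libraries) were set against cells transfected with a control siRNA (siCTRL, 2 libraries). All cells grew in DMEM with serum and received no drug. With 1 knockout clone, an effect of ZMAT3 and a difference between clones cannot be told apart.

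The respiratory chain moves electrons from NADH (complex I) and succinate (complex II) through ubiquinone to complex III, from there through cytochrome c to complex IV and oxygen, and the proton gradient built on the way drives ATP synthase (complex V). Complex II is made of nuclear gene products alone, whereas the other complexes mix subunits from both genomes: mitochondrial DNA encodes 7 subunits of complex I, 1 of complex III, 3 of complex IV and 2 of ATP synthase. The mitochondrial mRNAs are cut from long transcripts of the whole circle, whereas each nuclear gene has a promoter of its own, so the balance between the genomes is set at several steps.

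The layout of mitochondrial DNA limits what can be counted gene by gene. Most of its mRNAs are read from a single strand and 2 pairs of reading frames overlap within 1 mRNA, so that a fragment from the overlap belongs to both genes. The lines below are read from the plus strand of the human genome (build hg38). Capitals mark the 46 bases shared by MT-ATP8 and MT-ATP6, the 7 shared by MT-ND4L and MT-ND4, and the 1 shared by MT-ATP6 and MT-CO3. In the last line they mark the 30 bases of MT-ND6 next to the end of MT-ND5. MT-ND6 (chrM:14149-14673) is the only member read from the minus strand, so these are the last 30 bases of that gene.
MT-ATP8 and MT-ATP6, chrM:8527-8572: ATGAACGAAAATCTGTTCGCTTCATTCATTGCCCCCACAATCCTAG
MT-ND4L and MT-ND4, chrM:10740-10786: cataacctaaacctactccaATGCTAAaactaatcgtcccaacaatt
MT-ATP6 and MT-CO3, chrM:9187-9227: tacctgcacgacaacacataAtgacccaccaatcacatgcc
MT-ND5 and MT-ND6, chrM:14119-14178: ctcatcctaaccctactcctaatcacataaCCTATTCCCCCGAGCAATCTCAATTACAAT
Values of MT-ATP8 and MT-ATP6, and of MT-ND4L and MT-ND4, were therefore not independent of each other. Nuclear copies of mitochondrial genes on chromosome 1 add to this: MTATP6P1, MTND2P28 and MTCO1P12 are identical to MT-ATP6, MT-ND2 and MT-CO1 at 98.5%, 98.2% and 98.6% of their bases.

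The gene edited in the knockout moved as labelled. ZMAT3 stood at 5.00, 5.20 and 5.26 log2 CPM in ZMAT3-WT and at 2.25, 2.34 and 2.20 in ZMAT3-KO. The difference was -2.89 (limma, Benjamini-Hochberg adjusted p = 3.76e-12). CPM are read counts scaled to a common total, here with a single distribution of values shared by all 6 libraries. In the siRNA experiment ZMAT3 stood at 12.0 and 13.6 FPKM (fragments scaled to gene length and to the library total) in siCTRL and at 3.16 and 1.97 in sip53. The epithelial markers EPCAM, KRT8, KRT18 and CDH1 had values in every library. In ZMAT3-KO the keratins KRT8 and KRT18 were lower by 0.94 and 0.82 on the log2 scale, while EPCAM and CDH1 differed by 0.01 and 0.05. The fibroblast markers VIM and COL1A1 were higher there by 0.74 and 0.16 (adjusted p = 0.00177 and 0.0269), VIM from a low mean of 0.31 log2 CPM. In sip53 EPCAM was higher by 0.60 (limma, unadjusted p = 0.0234, adjusted p = 0.247). KRT8, KRT18 and CDH1 overlapped between siCTRL and sip53, and VIM and COL1A1 differed by -0.27 and 0.46 without passing the test. Read depth is unknown in both tables. Of the 6 libraries of the ZMAT3 experiment, ZMAT3-WT-1 stood apart for the mitochondrial genes: all 13 were lower in it than in ZMAT3-WT-2, by a median of 0.23 on the log2 scale. In the siRNA experiment the libraries resembled each other across the labels, siCTRL-1 with sip53-2 and siCTRL-2 with sip53-1: 74.4% of the 14274 genes tested deviated in the same direction within these pairs.

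In ZMAT3-KO, 9 of the 13 mitochondrially encoded genes rose and none fell at an adjusted p below 0.05. Their median difference was 0.27 on the log2 scale (range -0.12 to 0.96), beside -0.01 over all genes. The genes that rose were 6 of the 7 for complex I, the single one for complex III and both for ATP synthase, and the 3 for complex IV did not pass the test. At this threshold 58.8% of all genes were called, 28.7% as higher and 30.1% as lower, so that a call alone does not set a gene apart. MT-ND6 alone also passed a fold change of 1.5, which 8.96% of all genes did.

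MT-ND6, a membrane subunit of complex I, showed the largest rise of the members. It stood at 4.76, 5.09 and 4.96 log2 CPM in ZMAT3-WT and at 5.85, 5.81 and 6.03 in ZMAT3-KO, with no overlap of the groups. The difference of 0.96 ± 0.07 (SE) corresponded to 1.94-fold (adjusted p = 3.09e-07). MT-CYB (chrM:14747-15887), the cytochrome b of complex III and the catalytic heart of its quinone chemistry, stood at 9.89, 10.17 and 10.14 against 10.57, 10.50 and 10.55. Its difference of 0.48 ± 0.06 was 1.39-fold (adjusted p = 1.51e-05). MT-ND2 (chrM:4470-5511), which forms part of the proton-pumping arm of complex I, stood at 11.03, 11.24 and 11.24 against 11.61, 11.57 and 11.61, a difference of 0.43 ± 0.05 (adjusted p = 6.60e-06). In each of these genes every ZMAT3-KO library lay above every ZMAT3-WT library, as it did in 31.3% of all genes.

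Smaller rises were seen in the other called members of the set. MT-ND3 and MT-ND4L, short membrane subunits of complex I, differed by 0.37 and 0.36 (adjusted p = 1.15e-05 and 0.000692). The overlapping frames of ATP synthase moved together, MT-ATP8 by 0.30 and MT-ATP6 by 0.27. MT-ND1, which lines the quinone channel, differed by 0.27, and MT-ND5, the longest of the pump subunits, by 0.26. All of these, like the leading genes, were above every wild-type library in every knockout library, as were 31.3% of all genes.

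The catalytic core of complex IV did not follow. MT-CO1, which carries the site of oxygen reduction, stood at 12.37, 12.58 and 12.58 log2 CPM in ZMAT3-WT and at 12.43, 12.37 and 12.37 in ZMAT3-KO, a difference of -0.12 ± 0.05 (adjusted p = 0.0501). MT-CO2, the docking site of cytochrome c, stood at 11.61, 11.87 and 11.87 against 11.72, 11.68 and 11.72. MT-CO3 stood at 11.79, 11.97 and 11.97 against 11.97, 11.87 and 11.97. The groups overlapped in all 3 genes, and in MT-ND4 as well (difference 0.17, adjusted p = 0.150). These 4 genes without a call were the 4 mitochondrial members that ranked among the 25 highest genes of every library.

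The ranks of the mitochondrial genes are given here beside their values. The 6 libraries shared a single distribution of values: each of the 25 highest ranks, and each of the 100 highest, held the same value in every library. A gene among them could therefore differ only by changing rank. MT-CO1 was ranked 5, 3 and 3 in ZMAT3-WT and 4, 5 and 5 in ZMAT3-KO. Other abundant RNAs changed rank more: MT-ND2 moved from 30, 25 and 25 to 15, 16 and 15. The mitochondrial rRNA MT-RNR2 moved from 27, 17 and 20 to 5, 6 and 4. Whether rank limited the differences of the 4 genes without a call was not tested. MT-ATP6 was ranked 22 in all 3 ZMAT3-KO libraries and so had 1 identical value there, 11.34 log2 CPM, which is no measure of its spread. MT-ND6 lay far from the top and moved from ranks 6573, 5767 and 6102 to 3877, 3966 and 3432.

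**Figure D1:**
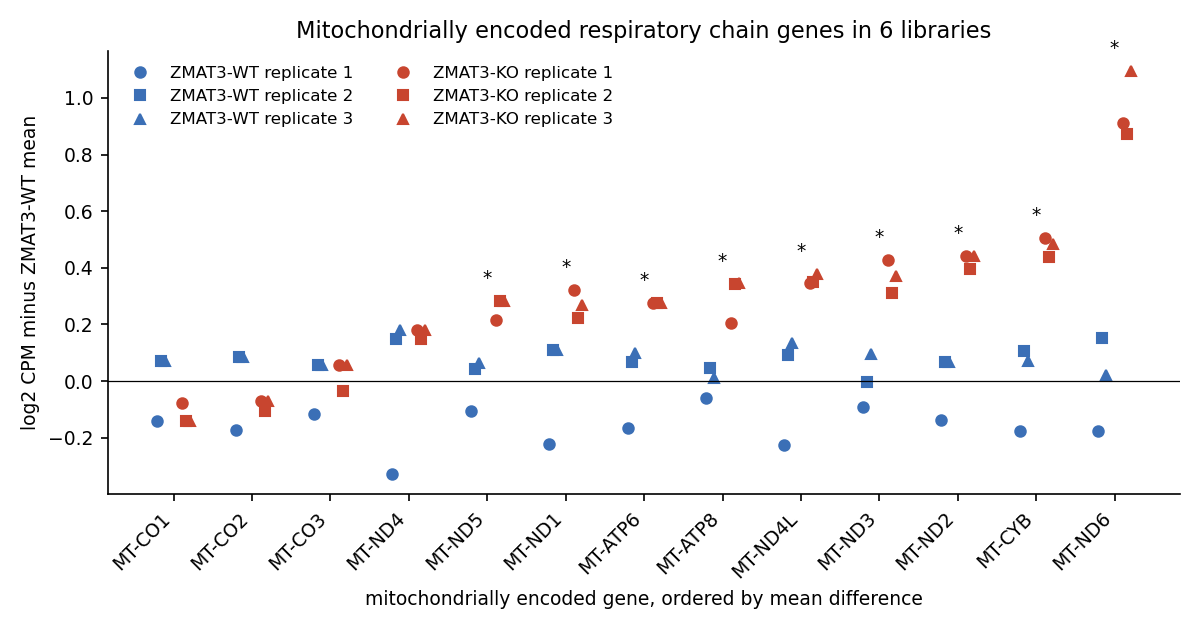
Each point is 1 library and gives the log2 CPM of a mitochondrially encoded gene minus the mean of the 3 ZMAT3-WT libraries (vertical axis), for 13 genes ordered by the difference between groups (horizontal axis), with blue for ZMAT3-WT and red for ZMAT3-KO. Asterisks mark the 9 genes called higher. ZMAT3-WT replicate 1 (blue circles) is the lowest wild-type library in every gene, and MT-ND6 lies farthest from 0.

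Leaving out ZMAT3-WT-1 lowered the rises and kept the 9 calls. The median of the 13 genes was then 0.21, with MT-ND6 at 0.87, MT-CYB at 0.39 and MT-ND2 at 0.36. Without this library MT-CO1 and MT-CO2 were called lower, by -0.19 and -0.17 (adjusted p = 5.42e-05 and 5.27e-05), and the difference of MT-ND4 shrank from 0.17 to 0.01. Without ZMAT3-WT-3 the difference of MT-ND4 was 0.26 and was called. The direction within the mitochondrial set was thus mixed without ZMAT3-WT-1, 9 higher and 2 lower.

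The RNAs of the mitochondrial ribosome, which are no members, lie on the same transcripts and rose more than most mRNAs. MT-RNR1 stood at 9.42, 9.67 and 9.58 log2 CPM in ZMAT3-WT and at 11.13, 11.11 and 11.17 in ZMAT3-KO, a difference of 1.58 (adjusted p = 4.13e-11). MT-RNR2 differed by 0.96 (adjusted p = 9.03e-07). The libraries were made from RNA captured by its poly(A) tail, and the rRNAs and the MT-ND6 mRNA are known for short or missing tails. Whether the amount of these RNAs or their capture differed between clones was not tested. Of the nuclear copies, MTND2P28 and MTATP6P1 rose like the genes they resemble, by 0.49 and 0.22 (adjusted p = 1.17e-05 and 0.000525). MTCO1P12 differed by -0.10 with overlap of the groups (adjusted p = 0.525), and MT-CO1 was not called either.

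Per kilobase of gene length, MT-CO2 and MT-CO3 had the highest levels in ZMAT3-WT, with means of 5180 and 4909 CPM per kilobase, and MT-ND6 the lowest, with 58.6. In ZMAT3-KO the order at the top was MT-CO3, 4996, and MT-CO2, 4879, a pair that differed by less than the range of either gene over the libraries. MT-ND6 reached 0.10 to 0.11 of the level of its neighbour MT-ND5 per length in ZMAT3-WT and 0.16 to 0.19 in ZMAT3-KO. In the siRNA table, whose values are also per length, that ratio was 0.88 to 1.68. Since the strand setting of the counting was not given for the siRNA libraries, reads of MT-ND6 there could not be told apart from those of antisense transcripts.

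Among the nuclear genes falls were more frequent than rises, and most differences were small. Of 81 nuclear subunit genes, 32 fell, 10 rose and 39 did not pass the test, and the median difference was -0.06 on the log2 scale (range -0.53 to 0.51), beside -0.01 over all genes. The share called lower was 39.5%, beside 30.1% of all genes, and the share called higher was 12.3%, beside 28.7%. None passed a fold change of 1.5, which 4.6% of all genes did upward and 4.37% downward, and 14 of the 81 differed by more than 0.2. Each library was also left out in turn, and 27 of the 32 falls and 6 of the 10 rises were called in all 6 of these fits. The exceptions were the falls of NDUFB9, NDUFC2, NDUFS3, COX6B1 and ATP5MD and the rises of NDUFA3, NDUFA4, NDUFA5 and NDUFB2, all under 0.17 in size. In 10 of the 81 genes all ZMAT3-KO libraries lay above all ZMAT3-WT libraries and in 37 below, where 31.3% and 32.9% of all genes did so.

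**Figure D2:**
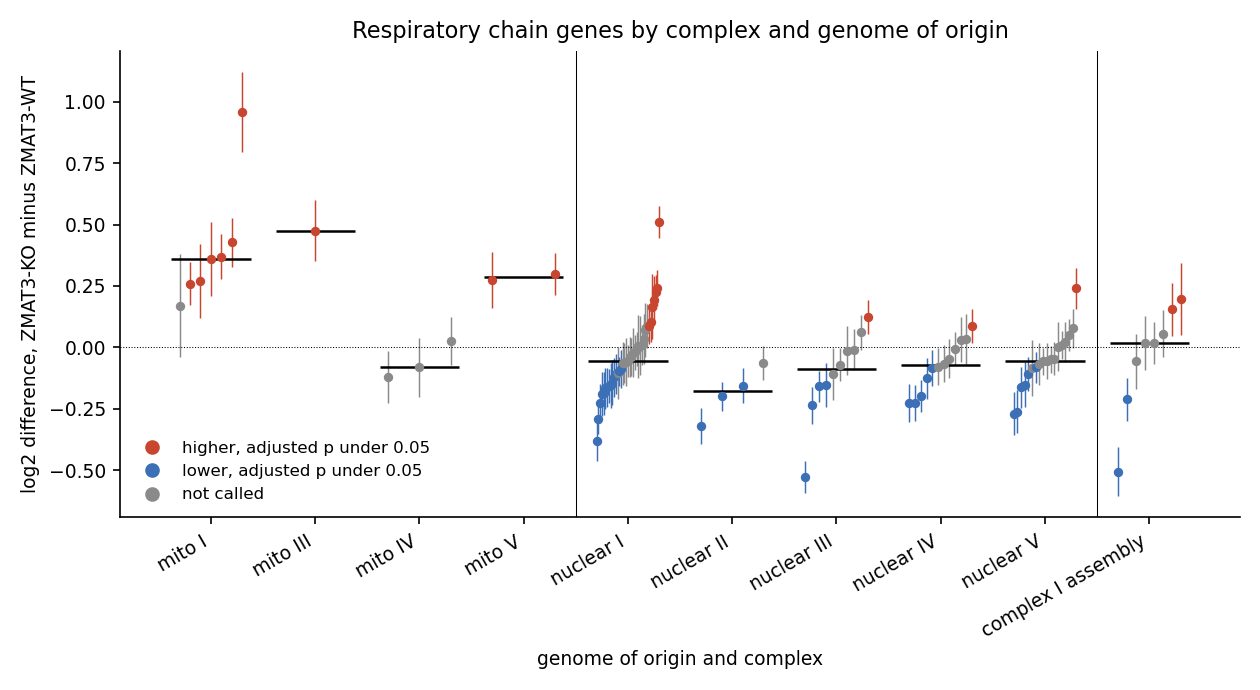
Each point is a gene, placed by genome of origin and complex (horizontal axis) and by its log2 difference between ZMAT3-KO and ZMAT3-WT (vertical axis). Thin bars are 95% confidence intervals from limma, black bars are medians, and colour gives the call at an adjusted p below 0.05. The mitochondrial genes of complexes I, III and V have medians of 0.36, 0.48 and 0.29, and every nuclear group lies around or below 0.

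Complex by complex, the gap between the genomes was seen in 3 of the 4 complexes that draw on both. In complex I the median difference was 0.36 over 7 mitochondrial genes and -0.06 over 37 nuclear genes, and NDUFB5 was the only nuclear gene above the mitochondrial median. In complex III it was 0.48 for MT-CYB and -0.09 over 10 nuclear genes. In ATP synthase it was 0.29 over 2 and -0.06 over 18. In complex IV the genomes did not separate, with -0.08 over 3 mitochondrial and -0.07 over 12 nuclear genes. These medians are descriptions and were given no test.

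Of the 37 nuclear genes of complex I, 14 fell (37.8%) and 7 rose (18.9%), so that 56.8% were called, near the 58.8% of all genes. Among the 7 core subunits, which hold the flavin, the iron-sulfur clusters and the quinone site, 3 fell and none rose. Those that fell included NDUFS3, by 0.12 (not called without ZMAT3-KO-2, where it differed by -0.09), and NDUFV2, by 0.10, while NDUFS1 and NDUFS8 differed by -0.01 and 0.00. The 30 supernumerary subunits, which surround the core, held all 7 rises and 11 falls.

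Among the supernumerary subunits NDUFB5, in the membrane arm, rose most of all nuclear members. NDUFB5 (chr3:179604690-179627647) stood at 6.37, 6.38 and 6.35 log2 CPM in ZMAT3-WT and at 6.85, 6.87 and 6.91 in ZMAT3-KO. The difference of 0.51 ± 0.03 was 1.42-fold (adjusted p = 2.34e-08). NDUFA13, also known as GRIM-19, stood at 6.58, 6.47 and 6.52 against 6.78, 6.73 and 6.78, a difference of 0.24. NDUFB8, whose protein is often used as a mark of assembled complex I, rose by 0.22. In the other direction NDUFA10, an accessory subunit, stood at 6.92, 6.89 and 6.86 against 6.61, 6.58 and 6.62. It differed by -0.29 (adjusted p = 3.95e-06), and NDUFA9, close to the quinone site, by -0.23. The accessory subunits of 1 complex thus moved in both directions.

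Complex II, which has no mitochondrial gene and links the chain to the citric acid cycle, was lower in 3 of its 4 genes and higher in none. Of all genes 30.1% were called lower and 28.7% higher. SDHB, the iron-sulfur subunit, stood at 7.14, 7.05 and 7.05 log2 CPM in ZMAT3-WT and at 6.77, 6.72 and 6.79 in ZMAT3-KO, a difference of -0.32 ± 0.03 (adjusted p = 4.72e-06). SDHA, the flavoprotein, differed by -0.20 (adjusted p = 4.97e-05) and SDHC, a membrane anchor, by -0.16 (adjusted p = 0.00113). The other anchor, SDHD, stood at 7.03, 7.09 and 7.10 against 7.05, 6.96 and 7.02 (adjusted p = 0.11), and was called lower in the fit without ZMAT3-WT-1 alone. Summed over the 4 genes, the level was 554, 556 and 551 CPM in ZMAT3-WT and 493, 474 and 496 CPM in ZMAT3-KO, with no overlap.

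Complex III held the largest fall of the members. UQCRC2 (chr16:21953288-21983660), a core subunit on the matrix side, stood at 7.54, 7.56 and 7.51 log2 CPM in ZMAT3-WT and at 7.05, 6.99 and 6.99 in ZMAT3-KO, a difference of -0.53 ± 0.03, or 0.694-fold (adjusted p = 1.35e-08). Its partner in the core, UQCRC1, stood at 7.78, 7.68 and 7.62 against 7.70, 7.64 and 7.71 and overlapped between the groups. The electron carriers encoded in the nucleus both fell: CYC1, cytochrome c1, by 0.24 and UQCRFS1, the Rieske iron-sulfur protein, by 0.16. UQCR10 also fell, by 0.15, and UQCRB, the small subunit next to the quinone site, rose by 0.12 (adjusted p = 0.00552). UQCRHL, a copy of UQCRH with which it may share reads, differed by -0.11 and UQCRH by -0.07, neither past the test.

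In complex IV, 5 of 12 nuclear genes fell (41.7%) and 1 rose (8.33%), where 30.1% of all genes fell and 28.7% rose. The share called in either direction was 50%, below the 58.8% of all genes. The falls were led by COX7B and COX7A2, small membrane subunits, at -0.23 each, and COX6C followed at -0.20. COX7B stood at 6.68, 6.62 and 6.58 log2 CPM in ZMAT3-WT and at 6.44, 6.35 and 6.41 in ZMAT3-KO (adjusted p = 0.000138). The gene that rose was NDUFA4, now counted with complex IV despite its name, at 0.09 (adjusted p = 0.0336), and it was called in 2 of the 6 fits that left out 1 library. It was above 0.05 without ZMAT3-WT-1, ZMAT3-WT-2, ZMAT3-KO-1 or ZMAT3-KO-3, with differences of 0.06 to 0.09. COX4I1 and COX6A1, the ubiquitous isoforms of their subunits, differed by -0.07 and -0.08 without passing the test, and COX6B1 by -0.08 (adjusted p = 0.0462), a call kept in 1 of the 6 fits, the one without ZMAT3-WT-3. COX7A2L, known for its part in joining complexes III and IV, differed by 0.00.

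In ATP synthase, 6 of 18 nuclear genes fell and 1 rose, so that the share that fell (33.3%) was near the 30.1% of all genes. The catalytic head and central stalk, ATP5F1A to ATP5F1E, held no call in either direction, with differences from -0.09 to 0.02. The genes that fell belong to the membrane part and the peripheral stalk: ATP5MPL by 0.27, ATP5MC2 by 0.26, ATP5MF by 0.16, ATP5PD by 0.15, ATP5MG by 0.11 and ATP5MD by 0.08. ATP5MD was called in 2 of the 6 fits without 1 library, those without ZMAT3-WT-1 or ZMAT3-KO-3, with differences from -0.09 to -0.07 over the 6. Reads of ATP5MF may be split with the readthrough entry ATP5MF-PTCD1, which differed by -0.28. ATP5IF1, the inhibitor that stops the enzyme from consuming ATP, stood at 6.30, 6.27 and 6.22 log2 CPM in ZMAT3-WT and at 6.52, 6.43 and 6.57 in ZMAT3-KO. It differed by 0.24 (adjusted p = 0.000178), and was the only rise in this complex.

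The rotor ring of ATP synthase is built from copies of subunit c, for which there are 3 nuclear genes whose mature products are the same. ATP5MC2 stood at 6.54, 6.40 and 6.52 log2 CPM in ZMAT3-WT and at 6.27, 6.17 and 6.24 in ZMAT3-KO (difference -0.26, adjusted p = 0.000123). ATP5MC1 stood at 6.56, 6.47 and 6.44 against 6.52, 6.39 and 6.56. ATP5MC3 stood at 8.17, 8.14 and 8.13 against 8.22, 8.14 and 8.22. ATP5MC2 was thus the one gene of the ring whose groups did not overlap.

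The members were also summed by genome. All libraries shared a single distribution of values, so these sums need not equal shares of the reads. The 13 mitochondrial genes summed to 22971, 27278 and 27442 CPM in ZMAT3-WT and to 28548, 27684 and 28347 CPM in ZMAT3-KO. The 81 nuclear genes summed to 11581, 11180 and 11185 CPM and to 10951, 10526 and 10991 CPM. The groups did not overlap in either sum, though the mitochondrial gap rested largely on ZMAT3-WT-1, and without it the nearest libraries were 27442 and 27684 CPM. Of the mitochondrial sum, complex I genes gave 7621, 9439 and 9592 CPM in ZMAT3-WT and 10913, 10623 and 10902 CPM in ZMAT3-KO, while complex IV genes gave 11959, 13869 and 13869 CPM against 12883, 12315 and 12650 CPM, with overlap. The ratio of the mitochondrial to the nuclear sum was 1.98, 2.44 and 2.45 in ZMAT3-WT and 2.61, 2.63 and 2.58 in ZMAT3-KO. With 3 against 3 libraries an exact permutation test of any such sum cannot go below p = 0.1 (two-sided), and none was run. In bulk samples a change in the mix of cells cannot be told apart from a change per cell.

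**Figure D3:**
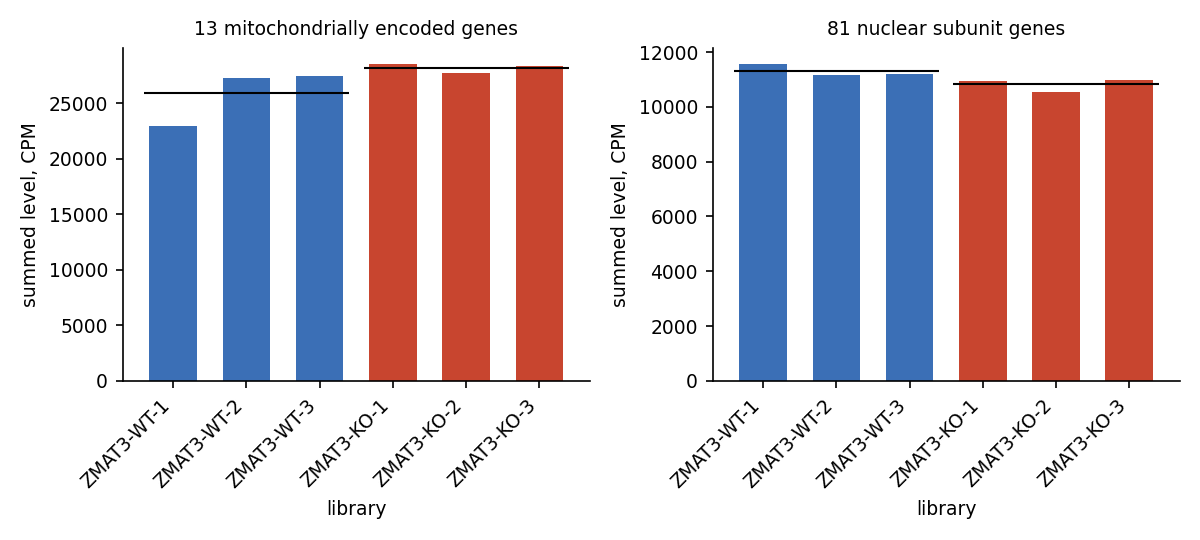
Bars give the summed level (vertical axes, CPM, from 0) of the 13 mitochondrially encoded genes (left) and the 81 nuclear subunit genes (right) in each library (horizontal axes), blue for ZMAT3-WT and red for ZMAT3-KO, with black lines at the group means. ZMAT3-WT-1 is the lowest library on the left at 22971 CPM and the highest on the right at 11581 CPM.

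Of the 8 NDUFAF assembly factors, which help to build complex I and are not part of it, 2 fell and 2 rose. Each share was 25%, where 30.1% of all genes fell and 28.7% rose. NDUFAF1 stood at 4.47, 4.45 and 4.41 log2 CPM in ZMAT3-WT and at 3.91, 3.99 and 3.91 in ZMAT3-KO, a difference of -0.51 ± 0.05 (adjusted p = 1.32e-06). NDUFAF4 fell by 0.21. NDUFAF7 and NDUFAF3 rose by 0.20 and 0.16, and the groups of NDUFAF3 overlapped. Each of these rises was called in 3 of the 6 fits without 1 library: both were lost without ZMAT3-KO-1 or ZMAT3-WT-2, NDUFAF7 also without ZMAT3-WT-3 and NDUFAF3 also without ZMAT3-KO-3, with differences of 0.12 to 0.25.

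Other genes of the pathway were taken from lists written from textbook knowledge. Of 48 further assembly factors 25 fell and 8 rose (median -0.13), where 30.1% of all genes fell and 28.7% rose. UQCC3, needed to assemble cytochrome b, differed by -0.43 and FMC1, a factor for ATP synthase, by -0.36. In the other direction TTC19, which supports complex III, differed by 0.40 and NUBPL, which delivers iron-sulfur clusters to complex I, by 0.30. Members of this list thus rose and fell.

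The genes that copy, transcribe and process mitochondrial DNA were mostly lower: 24 of 33 fell and 1 rose, where 30.1% of all genes fell and 28.7% rose, with a median of -0.19. TACO1, which promotes translation of MT-CO1, and PNPT1, an RNA-degrading enzyme of the organelle, differed by -0.51 each (adjusted p = 4.90e-07 and 2.65e-07). LRPPRC, which with SLIRP stabilises mitochondrial mRNAs, stood at 8.91, 8.91 and 8.89 log2 CPM in ZMAT3-WT and at 8.54, 8.61 and 8.51 in ZMAT3-KO, and SLIRP differed by -0.29. TFAM, which packages mitochondrial DNA and helps to start its transcription, stood at 6.74, 6.83 and 6.82 against 6.49, 6.54 and 6.53. LRPPRC, SLIRP and TFAM were outside the rule for named genes and were chosen after their values were seen. The single rise was HSD17B10, a part of mitochondrial RNase P, at 0.13 (adjusted p = 0.0153), which was not called when ZMAT3-WT-2, ZMAT3-WT-3 or ZMAT3-KO-3 was left out (differences 0.10 to 0.11). So 9 mitochondrial mRNAs were higher in cells in which most genes of this list were lower.

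Among 12 transcriptional regulators of nuclear respiratory genes 8 fell and 2 rose (median -0.14). MYC differed by -0.30 and TFEB, a regulator of lysosomal and mitochondrial genes, by -0.20 (adjusted p = 0.0483). TFEB was above 0.05 in all fits without 1 library except that without ZMAT3-KO-3. PPARA, a receptor for fatty acids, rose by 0.51 (adjusted p = 6.12e-06) and CREB1 by 0.20. Of 20 genes for coenzyme Q and cytochrome c, 10 fell and 2 rose: COQ3, a methyltransferase of ubiquinone synthesis, differed by -0.49, DHODH by -0.45, ETFDH by 0.31 and ETFB by 0.19. Of 18 genes of the citric acid cycle 9 fell and 3 rose, with DLST and DLAT at -0.31 and -0.27 and IDH3G at 0.43. PC, the anaplerotic carboxylase, differed by 0.17 (adjusted p = 0.0441), a call lost without ZMAT3-WT-2, ZMAT3-WT-3, ZMAT3-KO-1 or ZMAT3-KO-2 (differences 0.11 to 0.19). Over the 131 genes of the 5 lists, 76 were called lower (58.0%) and 16 higher (12.2%), beside 30.1% and 28.7% of all genes, with no test of the difference. Of these calls, 63 and 13 were kept in all 6 fits without 1 library, and none passed a fold change of 1.5.

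Promoters were read for the nuclear members that moved most. RefSeq held a promoter entry (250 bases before to 50 after the start, GRCh38.p14) for 64 of the 81 nuclear subunit genes. The windows of the 2 largest falls and the 2 largest rises among these genes follow, each written 5′ to 3′ on the strand of its gene. Capitals mark exact matches, on either strand, to sites of 3 factors known from nuclear respiratory genes: NRF1 (searched as GCGCATGC), the ETS factors that include GABPA (CCGGAAGT) and YY1 (AAGATGGCG).
UQCRC2, chr16:21953111-21953410, plus strand: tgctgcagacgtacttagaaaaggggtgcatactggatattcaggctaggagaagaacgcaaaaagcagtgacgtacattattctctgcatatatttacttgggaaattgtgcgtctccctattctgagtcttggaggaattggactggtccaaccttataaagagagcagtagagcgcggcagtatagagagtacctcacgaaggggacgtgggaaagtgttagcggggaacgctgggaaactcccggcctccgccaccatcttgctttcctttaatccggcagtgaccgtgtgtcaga
SDHB, chr1:17053983-17054282, minus strand: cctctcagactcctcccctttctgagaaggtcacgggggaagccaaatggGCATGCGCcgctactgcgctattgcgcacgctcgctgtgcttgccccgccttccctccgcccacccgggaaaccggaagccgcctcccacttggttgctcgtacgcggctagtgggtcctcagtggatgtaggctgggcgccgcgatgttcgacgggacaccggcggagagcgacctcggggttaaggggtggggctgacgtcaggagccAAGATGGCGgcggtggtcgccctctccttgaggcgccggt
NDUFA13, chr19:19515975-19516274, plus strand: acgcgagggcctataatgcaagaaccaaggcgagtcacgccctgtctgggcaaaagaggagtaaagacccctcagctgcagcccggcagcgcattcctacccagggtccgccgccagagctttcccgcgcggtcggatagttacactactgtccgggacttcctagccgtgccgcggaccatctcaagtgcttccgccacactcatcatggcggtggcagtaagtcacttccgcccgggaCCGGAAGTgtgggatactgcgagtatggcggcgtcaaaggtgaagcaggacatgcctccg
ATP5IF1, chr1:28235874-28236173, plus strand: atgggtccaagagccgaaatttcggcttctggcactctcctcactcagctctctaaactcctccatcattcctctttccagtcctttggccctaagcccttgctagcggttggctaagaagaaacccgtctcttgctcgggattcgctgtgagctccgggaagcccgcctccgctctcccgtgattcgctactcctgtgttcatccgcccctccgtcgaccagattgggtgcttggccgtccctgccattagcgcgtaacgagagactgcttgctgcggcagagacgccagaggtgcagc
The window of SDHB held an NRF1 match that begins 200 bases before the start and a YY1 match 11 bases after it. The window of NDUFA13 held an ETS match 10 bases before the start, and those of UQCRC2 and ATP5IF1 held none of these letters.

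Any of the 3 motifs was found in 24 of the 64 windows (37.5%), against 8.90% of 27305 promoters in the table. NRF1 letters were in 20.3% of the members' windows against 3.27% of all, ETS letters in 14.1% against 4.44%, and YY1 letters in 12.5% against 1.85%. Split by call in ZMAT3-KO, a motif was found in 7 of 23 windows of genes that fell, in 2 of 7 of genes that rose and in 15 of 34 of genes not called. The share in genes that moved was thus not above that in genes that did not. Of the factors themselves, NRF1 and YY1 fell by 0.19 and 0.18, and GABPA stood at 5.50, 5.60 and 5.62 log2 CPM in ZMAT3-WT against 5.62, 5.63 and 5.61. NRF1, YY1 and GABPA were named here because their motifs were searched.

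In sip53 against siCTRL no member passed the test as fitted. At the unadjusted p below 0.05 used for this experiment, 0 of 109 members were called by limma, where 15.1% of all 14274 genes were (5.86% higher, 9.28% lower), and 0.273% of all genes passed an adjusted p below 0.05. The count of 0 changed with the processing: 2 nuclear members were called higher without a filter or when libraries were centred on the median gene, and 2 lower when rescaled without mitochondrial genes. With a crossed pairing of the libraries as a block, chosen after seeing the data, 1 mitochondrial and 16 nuclear members were called higher and 5 and 10 lower. Over all 14274 genes that block called 2410 higher and 3128 lower. The median difference was -0.24 on the log2(FPKM + 0.1) scale over the 13 mitochondrial genes and 0.04 over 78 nuclear subunit genes, beside -0.04 over all genes. The intervals were wide: the median half-width of the 95% interval was 1.29 for the mitochondrial and 0.57 for the nuclear genes.

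The mitochondrial genes varied more between the libraries of a group than between the groups. MT-ATP8 stood at 15844 and 4118 FPKM in siCTRL and at 3981 and 9795 in sip53. MT-CO2 stood at 8298 and 2866 against 3276 and 6993, and MT-ND6 at 1403 and 468 against 550 and 1552. In all 13 genes siCTRL-1 was above siCTRL-2, by a median of 2.53-fold, and in 12 of 13 sip53-2 was above sip53-1. The exception was MT-ND4L, with 2267 and 2152 in sip53. The 13 genes took 8.31% and 3.42% of the summed FPKM in siCTRL and 3.39% and 5.65% in sip53. The groups overlapped in all 13 genes. Without siCTRL-1 the median difference was 0.53 and without siCTRL-2 it was -0.92, so that its sign rested on single libraries. Without siCTRL-2, MT-ND2 and MT-ND1 passed the unadjusted threshold as lower, by -1.42 and -0.99.

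**Figure D4:**
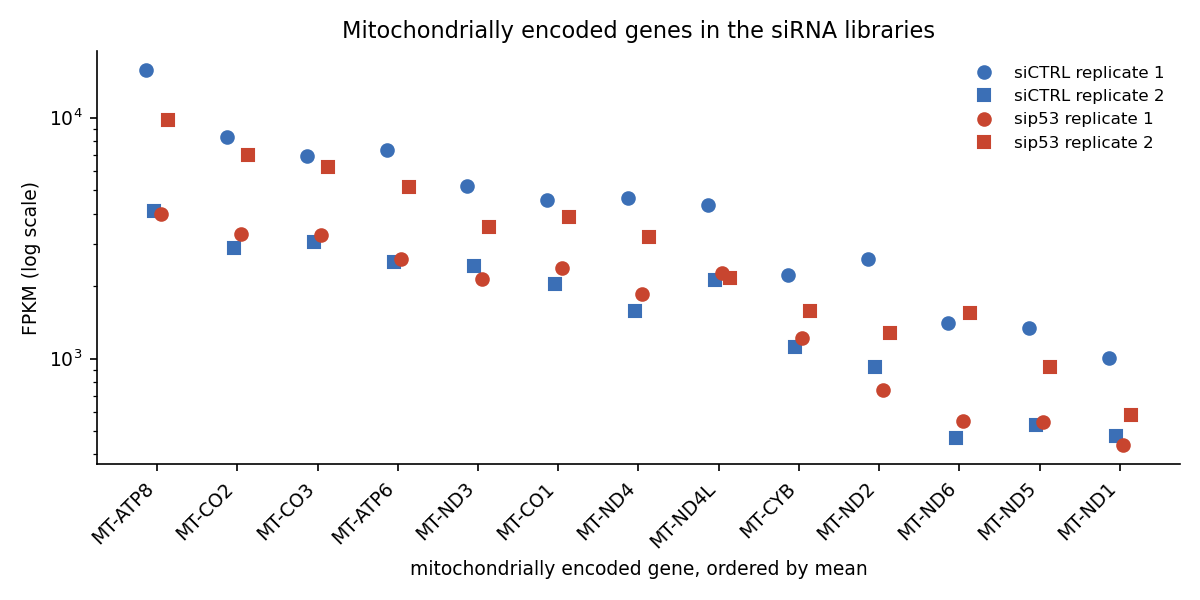
FPKM on a log scale (vertical axis) of the 13 mitochondrially encoded genes, ordered by mean (horizontal axis), in 2 siCTRL libraries (blue) and 2 sip53 libraries (red), with circles for replicate 1 and squares for replicate 2. The blue circles (siCTRL-1) and red squares (sip53-2) lie above the other libraries in 12 of 13 genes, and MT-ATP8 spans 3981 to 15844 FPKM.

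The order of the mitochondrial genes per length was led in the siRNA table by MT-ATP8, with a mean of 8434 FPKM over the 4 libraries, MT-CO2, with 5358, and MT-CO3, with 4868, and closed by MT-ND1, with 627. Between the libraries each of these genes varied by more than the step to its neighbour. The nuclear genes were lower: the median over 15 genes of ATP synthase was 319 FPKM, over 13 of complex IV 297, over 9 of complex III 189, over 37 of complex I 93.5 and over 4 of complex II 92.4. ATP5J2 (the older symbol of ATP5MF) had the highest mean of the nuclear genes, 887 FPKM, followed by COX4I1 with 770. Among paired isoforms, COX6B1 stood at 322, 308, 282 and 312 FPKM in siCTRL-1, siCTRL-2, sip53-1 and sip53-2 where COX6B2 stood at 0.45, 1.95, 1.13 and 1.31. NDUFA4 stood at 48.6, 78.0, 91.6 and 40.4 FPKM where NDUFA4L2 stood at 0.11, 0.05, 0.36 and 0.69 and fell under the filter.

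Both sip53 libraries lay above both siCTRL libraries in 15 of 78 nuclear genes and below them in 11, where 20.1% and 26.3% of all genes did so. The lowest p of the members was that of ATP5G1, the older symbol of ATP5MC1. ATP5G1 stood at 469 and 344 FPKM in siCTRL and at 259 and 283 in sip53, a difference of -0.57 (95% interval -1.15 to 0.02, adjusted p = 0.337). The other genes of subunit c did not share this pattern: ATP5G2 stood at 293 and 302 against 317 and 364, and ATP5G3 at 226 and 347 against 333 and 175. SDHB stood at 129 and 119 against 162 and 173, a difference of 0.44 (-0.02 to 0.89, adjusted p = 0.342). NDUFS7, a core subunit of complex I, stood at 38.1 and 37.2 against 46.1 and 62.7 (0.51, adjusted p = 0.348). In ATP5G1, SDHB and NDUFS7 the groups did not overlap, yet none of them passed the test. These 3 genes were named after their values were seen.

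**Figure D5:**
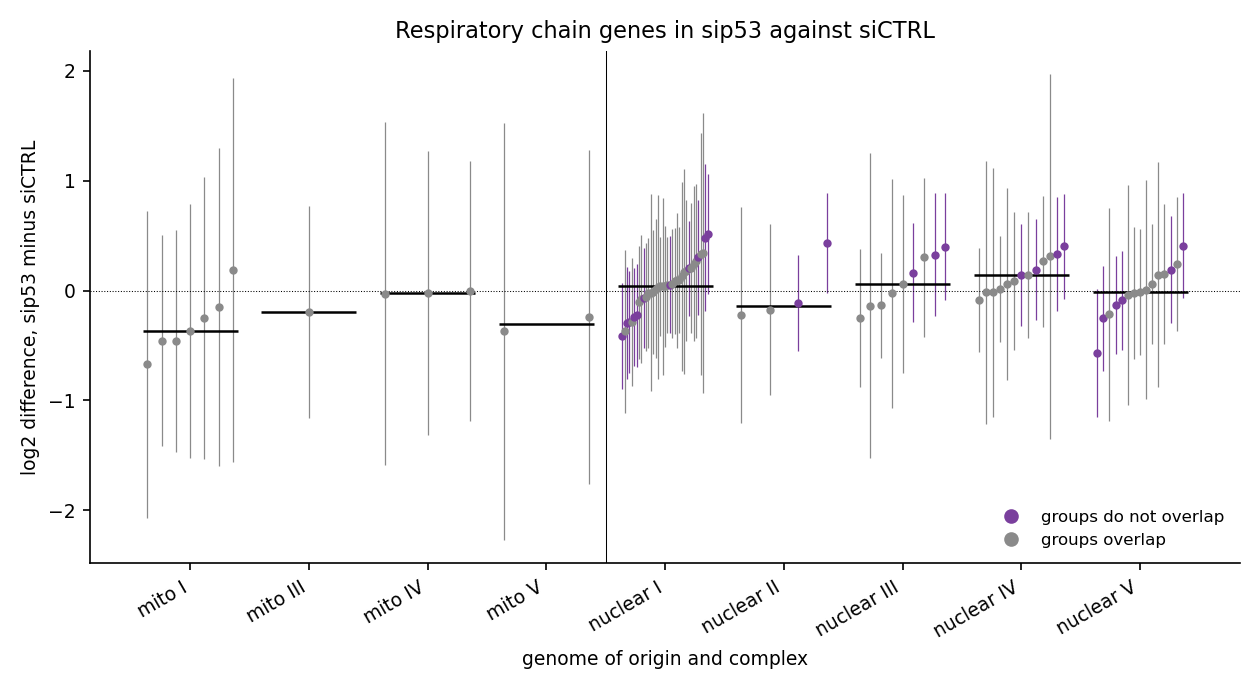
Each point is a gene, placed by genome of origin and complex (horizontal axis) and by its log2 difference between sip53 and siCTRL (vertical axis), with 95% confidence intervals from limma and black bars at the medians. Purple marks genes whose groups do not overlap. All 91 intervals shown include 0, with a median half-width of 1.29 for the mitochondrial and 0.57 for the nuclear genes.

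Beyond the members, 15 of 132 genes of the other lists (11.4%) were called in sip53 against siCTRL, 3 higher and 12 lower, at an unadjusted p below 0.05, a share below the 15.1% of all genes. None passed the adjusted threshold. With 2 libraries a group these calls were weak: COA1, ECSIT, LYRM7 and COX20 each lost the call when siCTRL-1 was left out, COA1 when any library was, COX20 also without sip53-1, and ECSIT and LYRM7 also without siCTRL-2 or sip53-2. Of the 48 assembly factors 5 fell and 2 rose. COX20, a factor for MT-CO2, stood at 95.3 and 73.5 FPKM in siCTRL and at 40.6 and 59.8 in sip53 (difference -0.76, adjusted p = 0.280), and LYRM7, for the Rieske protein, at 4.17 and 4.66 against 2.95 and 2.34 (-0.72, adjusted p = 0.247). ECSIT stood at 17.0 and 15.5 against 23.5 and 26.9 (0.63, adjusted p = 0.220) and COA1 at 57.5 and 54.4 against 78.7 and 80.3 (0.51, adjusted p = 0.268). TTC19, one of the rises in ZMAT3-KO, stood at 30.8 and 34.3 against 24.7 and 22.9 (-0.45, adjusted p = 0.324). TTC19 thus had opposite signs in the 2 experiments, a contrast that was not tested.

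Of 34 genes that express mitochondrial DNA 4 fell and none rose, where 9.28% of all genes fell and 5.86% rose at the unadjusted threshold. The same shares apply to the lists that follow. MTERF, the older symbol of the transcription factor MTERF1, stood at 18.0 and 15.7 FPKM in siCTRL and at 7.04 and 9.76 in sip53 (-1.01, adjusted p = 0.168). TEFM, the elongation factor of mitochondrial RNA polymerase, stood at 11.9 and 12.8 against 7.59 and 6.37 (-0.82, adjusted p = 0.173), and had a difference of -0.36 in ZMAT3-KO. Without siCTRL-2 its difference was -0.76 and was not called. PNPT1 stood at 15.3 and 14.9 against 9.32 and 9.96 (-0.64, adjusted p = 0.201). None of 12 regulators and none of 18 citric acid cycle genes was called. Of 20 genes for coenzyme Q and cytochrome c 3 fell and 1 rose: COQ4, which organises ubiquinone synthesis, differed by -1.13 and ADCK4 (also COQ8B) by -0.97, and COQ2 by 0.44, a call lost without any 1 of the 4 libraries.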

How the data were processed

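Libraries of mRNA from HCT116 cells were analysed: 3 ZMAT3-WT, 3 ZMAT3-KO, 2 siCTRL and 2 sip53. For the ZMAT3 experiment the authors used Cutadapt for trimming, STAR for alignment (hg38) and RSEM with GENCODE genes for quantification, and deposited log2 CPM values for 13029 genes, and how these were normalized is not given in the sources used here. All 6 libraries share a single distribution of values, so that differences of very abundant genes follow changes in rank. For the siRNA experiment the deposited values were read as FPKM, a unit inferred from the values, for 17642 genes. The submitters' processing notes name CASAVA 1.8.2, TopHat2 2.0.8 and FastQC 0.11.2 and the builds hg19 and hg38 with no role. Columns that hold the authors' own comparisons (fold changes, their errors, test statistics, p-values and a base mean) were not used. Depth is unknown, so no counting intervals are given.

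Gene tests were fitted across all genes of a table with limma 3.58.1 in R 4.3.3 (empirical Bayes with a variance trend, two-sided), on the deposited log2 CPM for ZMAT3-KO against ZMAT3-WT and on log2(FPKM + 0.1) for the 14274 genes whose mean reached 0.5 FPKM for sip53 against siCTRL. On the second scale changes of low genes are understated. Benjamini-Hochberg adjustment ran over all genes tested. Calls used an adjusted p below 0.05, also with a fold change of 1.5, in the first experiment and an unadjusted p below 0.05 in the second, the threshold of the study. The fits were tested on simulated data. The ZMAT3 libraries were described as biological triplicates. The paper names a single knockout clone and does not give the number of wild-type clones. The study speaks of independent experiments for its siRNA data, but the labels do not tie the 2 libraries of a group to separate cultures, so p-values measure only the spread between these samples, which may be technical. Gene sets were described by counts and medians without a test. The genes named were all mitochondrial members, the 3 largest called changes of each direction per complex, the isoform pairs and subunit c genes, and the 2 largest called changes of each direction in each other list. Genes named beyond that rule were given to account for a count or after their values were seen. The members, the lists and the rules were chosen with earlier results of these data known. Gene positions are from GENCODE on hg38 and promoters from RefSeq. Alternatives covered the pseudocount, filters, scaling, variance trend, replicate block, thresholds and leaving out each library. Values of some genes, among them the siRNA target, are not reported here.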

Additional observations from a re-analysis of the deposited data

How the results depend on the processing

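Replicate numbers did not pair the libraries of the ZMAT3 experiment: deviations of same-numbered libraries correlated at -0.04, -0.02 and -0.09. With the replicate number as a block, 1 mitochondrial gene was called lower (MT-CO1, adjusted p = 0.0376) beside 9 higher, and of the nuclear genes 11 rose and 36 fell. In the siRNA experiment the same-numbered libraries correlated at -0.62. There the replicate block gave 434 and 650 genes called higher and lower over all genes, against 836 and 1325 without it, no member, and 0 higher and 4 lower of the other pathway genes, against 3 and 12. With the crossed pairing as a block, chosen after seeing the data, the counts were 2410 and 3128 over all genes, 1 and 5 mitochondrial, 16 and 10 nuclear, and 18 and 33 other pathway genes.

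With a fold change of 1.5 the calls in ZMAT3-KO were 599 higher and 569 lower over all genes, 1 and 0 mitochondrial, 0 and 0 nuclear, and 0 and 0 other pathway genes, and without ZMAT3-WT-1 as well, a setting added after seeing the data, they were 592 and 568, 1 and 0, 0 and 0, and 0 and 0. A filter at a mean log2 value of 0 called 1 mitochondrial gene lower, MT-CO1. Without a variance trend 6 nuclear genes were called higher instead of 10, and MT-ND1 was not called (adjusted p = 0.0520). Leaving out 1 library gave 0 to 2 mitochondrial genes called lower, the 2 without ZMAT3-WT-1, and 6 to 13 nuclear genes called higher, the 6 without ZMAT3-KO-1 or ZMAT3-KO-3. The direction of the median difference of both genomes in ZMAT3-KO was kept under all alternatives run.

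For sip53, a mean of at least 5 FPKM left 555 genes called higher, and an adjusted p below 0.05 left 5 higher and 34 lower, with 0 and 0 of the other pathway genes. Of the nuclear members 2 were called higher without a filter and 2 when libraries were centred on the median gene. Rescaled without mitochondrial genes, 2 were called lower, 1 other pathway gene was called higher and the median of the nuclear members was -0.05. Leaving out 1 library gave 482 to 720 genes called higher and 635 to 1171 lower, 0 to 2 mitochondrial members lower and 0 to 2 nuclear members higher, and 0 to 3 other pathway genes higher and 5 to 8 lower (with the lone library of a group assumed to vary like the others). The median of the nuclear members turned to -0.063 without siCTRL-1 (range -0.063 to 0.12), and that of the mitochondrial members ranged from -0.92 to 0.53. For these settings the cause was not tested. Precision in the siRNA experiment was limited by 2 libraries a group.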
